A study of Homo sapiens with 12 samples.

Results

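The expression of 45 lysosomal genes was examined in HL60 cells. They were chosen by function, with earlier results of these data known. The set holds genes of lysosomal hydrolases, of other proteins of the lysosomal lumen and membrane, and of transcription factors of the lysosomal gene network. These are 45 of the 59251 genes in the count table. They comprise 10 glycosidases, 5 sulfatases, 9 peptidases, 6 hydrolases of lipids and phosphate esters, 3 non-enzyme proteins of the lumen, 9 membrane proteins and 3 transcription factors. HL60 (HL-60) is an established human acute myeloid leukemia line that lacks the PML-RARA fusion of acute promyelocytic leukemia. RNA-Seq was performed on non-treated cells and on cells that had received all-trans retinoic acid (ATRA) at 1 µM, palbociclib, an inhibitor of the kinases CDK4 and CDK6 (CDK4/6i), at 1 µM, or the 2 drugs combined (CDK4/6i+ATRA) for 48 h. Each of the 4 groups had 3 libraries, 12 in all, which the labels number as biological replicates of this single line.
Lysosomes are acidic organelles in which hydrolases degrade proteins, glycans, lipids and nucleic acids delivered by endocytosis, phagocytosis and autophagy. Many of their genes carry a short motif near the transcription start that is bound by the related factors TFEB, TFE3 and MITF. In senescent cells the lysosomal compartment grows, and the β-galactosidase staining used to mark such cells reads out the lysosomal enzyme encoded by GLB1. In myeloid cells, the azurophil granules of promyelocytes are lysosome-related, and mature phagocytes are rich in lysosomal enzymes.
The motif is shown in its genomic context, since 3 members of the gene set encode the factors that bind it. RefSeq promoter windows (build GRCh38.p14) from 250 bases before to 50 bases after a gene's start were found for 35 of the 45 genes, and none was found for HEXA, MANBA, NAGLU, ARSA, SGSH, CTSB, CTSS, ASAH1, PSAP and LAMP2. The letters TCACGTGA, which read the same on both strands, were in a window of 6 of the 35 genes (17.1%), against 1.18% of 27305 genes with a window and 2.35% of the 9788 of them that were tested for expression. The shorter core CACGTG, which also lies inside the longer motif, was in 11 of the 35 (31.4%), against 8.77% and 12.8%. The 6 genes with the longer motif were LAMP1, MCOLN1, GAA, CTSA, CLN3 and GALNS. LAMP1 held it at 2 places, beginning 29 and 2 bases before the start, MCOLN1 at 42 and 15 bases and GAA at 77 and 32 bases. CTSA held it 26 bases, CLN3 2 bases and GALNS 175 bases before the start. The stretches from 180 bases before to 10 bases after the start are printed below, 5′ to 3′ on the strand of the gene, with TCACGTGA in capitals. CTSD, the most abundant member by summed counts, is shown beside the 6 holders because its window held only the core, beginning 47 bases before the start. The window starts of 32 of the 35 genes lay within 100 bases of the outermost start in the count table, whereas those of GLB1, TFEB and SCARB2 lay 324, 615 and 20708 bases inside the gene, so the search did not cover their outermost starts. The stretches are chr13:113297059-113297248 (LAMP1, plus strand), chr19:7522444-7522633 (MCOLN1, plus strand), chr17:80101401-80101590 (GAA, plus strand), chr20:45891155-45891344 (CTSA, plus strand), chr16:28492065-28492254 (CLN3, minus strand), chr16:88856938-88857127 (GALNS, minus strand) and chr11:1763918-1764107 (CTSD, minus strand).
LAMP1: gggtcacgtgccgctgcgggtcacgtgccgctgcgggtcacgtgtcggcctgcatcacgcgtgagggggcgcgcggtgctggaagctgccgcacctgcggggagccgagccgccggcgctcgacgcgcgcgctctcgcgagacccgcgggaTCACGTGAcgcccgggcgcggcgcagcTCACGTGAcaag
MCOLN1: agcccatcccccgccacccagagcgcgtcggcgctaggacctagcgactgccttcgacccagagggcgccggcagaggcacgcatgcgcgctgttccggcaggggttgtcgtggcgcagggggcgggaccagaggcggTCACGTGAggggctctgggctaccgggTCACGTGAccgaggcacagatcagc
GAA: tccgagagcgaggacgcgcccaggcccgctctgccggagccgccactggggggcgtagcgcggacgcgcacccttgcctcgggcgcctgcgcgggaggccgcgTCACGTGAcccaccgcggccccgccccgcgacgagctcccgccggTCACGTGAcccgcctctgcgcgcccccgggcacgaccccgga
CTSA: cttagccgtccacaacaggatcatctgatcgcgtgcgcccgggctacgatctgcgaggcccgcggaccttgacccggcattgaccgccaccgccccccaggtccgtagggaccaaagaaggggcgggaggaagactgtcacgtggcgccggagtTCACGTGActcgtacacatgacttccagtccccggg
CLN3: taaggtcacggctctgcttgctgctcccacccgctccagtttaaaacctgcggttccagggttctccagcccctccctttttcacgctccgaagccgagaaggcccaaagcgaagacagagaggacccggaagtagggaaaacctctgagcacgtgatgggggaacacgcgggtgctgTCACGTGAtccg
GALNS: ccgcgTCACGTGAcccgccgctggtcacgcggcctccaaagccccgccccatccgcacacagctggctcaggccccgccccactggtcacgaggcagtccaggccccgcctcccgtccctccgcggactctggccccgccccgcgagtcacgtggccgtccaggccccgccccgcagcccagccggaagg
CTSD: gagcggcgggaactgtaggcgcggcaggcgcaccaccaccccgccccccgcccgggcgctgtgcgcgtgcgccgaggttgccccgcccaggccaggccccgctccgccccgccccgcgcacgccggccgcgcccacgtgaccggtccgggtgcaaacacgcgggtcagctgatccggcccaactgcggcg
A match of letters is a description of the window and not evidence that a factor binds there.

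Total counts were between 12230923 and 18679544 per library, and those of CDK4/6i+ATRA cells, at 12230923 to 14415276, were the lowest. At this depth 3 counts correspond to 0.161 to 0.245 CPM (counts scaled to a common library size) by library size, and such floors cover counting error only. Levels below are CPM after TMM normalization in edgeR. Changes are log2 fold changes with their standard errors (SE) from edgeR's quasi-likelihood test, and a gene was called higher or lower at a Benjamini-Hochberg adjusted p-value under 0.05 over the 13318 tested genes. Of the promyelocytic markers MPO, ELANE, PRTN3, AZU1, CTSG, CD33, KIT and MYB, ELANE, PRTN3 and AZU1 were at 0 in all 12 libraries. Whether these zeros reflect absent RNA or reads lost in mapping or counting was not tested. The 8 markers together summed to 6777 to 7109 CPM in non-treated cells, 425 to 481 with ATRA, 3906 to 4032 with CDK4/6i and 131 to 152 with CDK4/6i+ATRA. MPO made up most of the sum in every group except CDK4/6i+ATRA, with a mean of 292 CPM with ATRA and 27.9 with both drugs. The other 7 markers summed to 449 to 457 CPM (non-treated), 150 to 160 (ATRA), 493 to 500.1 (CDK4/6i) and 106 to 118 (both drugs). Without MPO the sum was thus not lower with CDK4/6i. Markers of erythroid cells were at 0 in every library, those of epithelial cells and fibroblasts summed to at most 0.233 CPM, those of T cells to at most 3.11 CPM and those of B cells to between 13.1 and 25.3 CPM. The part of these differences in the lysosomal results was not tested.

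As a group, the lysosomal genes took a larger share of the RNA in every treated group than in non-treated cells, and the largest with both drugs. The 45 genes summed to 4175 ± 91.3 CPM in non-treated cells, 8090 ± 117 under ATRA, 6026 ± 109 under CDK4/6i and 14091 ± 451 under both drugs (SD, n = 3). The lowest and highest libraries were at 4078 and 4259 CPM in non-treated cells, 7963 and 8194 with ATRA, 5920 and 6139 with CDK4/6i, and 13609 and 14504 with CDK4/6i+ATRA, so no groups overlapped. Relative to non-treated cells, these means were 1.94 times as high with ATRA, 1.44 times with CDK4/6i and 3.37 times with CDK4/6i+ATRA, the last being 2.81 times when scaled by library size alone. In these bulk samples, more cells of a type and more RNA per cell cannot be told apart. A single gene weighed heavily on the sum. CTSD, which encodes cathepsin D, the main aspartic peptidase of lysosomes, supplied 7.49% of the sum in non-treated cells, 9.02% with CDK4/6i, 32.1% with ATRA and 31.6% with CDK4/6i+ATRA. Without CTSD, the sum relative to non-treated cells was 1.42 with either drug alone and 2.49 with both.

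**Figure D1:**
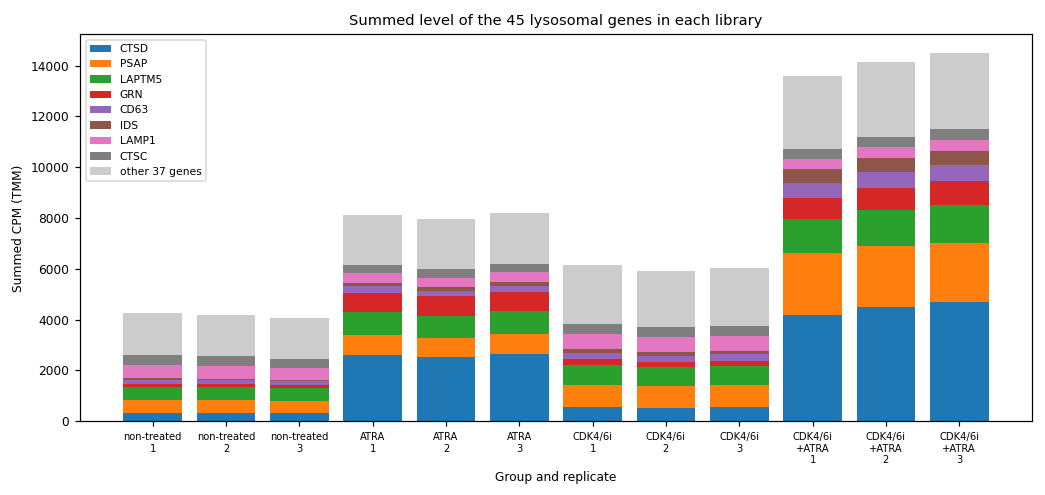
Summed CPM (TMM) of the 45 lysosomal genes in each of the 12 libraries, stacked by gene for 8 abundant members and the other 37 together. The CDK4/6i+ATRA libraries reach 13609 to 14504 CPM against 4078 to 4259 in non-treated cells, and CTSD is the lowest block of each bar.

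Most lysosomal genes were called higher in each treated group, while 10 were called lower with ATRA and 1 with CDK4/6i. The 2 drugs were not tested against each other. Of the 45 genes, 43 passed the expression filter and were tested. NEU1, a sialidase, had 20 counts and ACP5, the tartrate-resistant acid phosphatase, had 11 counts over all 12 libraries, and neither was tested. With ATRA, 27 of the 43 were called higher and 10 lower than in non-treated cells, against a background of 32.1% of all tested genes higher and 35.5% lower. With CDK4/6i, 33 were called higher and 1 (GUSB) lower, against a background of 28.3% and 27.9%. With CDK4/6i+ATRA, 35 were called higher and 5 lower, against a background of 41% and 40.7%, and 25 of the 35 rises and 2 of the 5 falls were at least 2-fold, beside 22.3% and 23.3% of all tested genes that were called and at least 2-fold higher or lower. The tested members called higher were thus 62.8% under ATRA, 76.7% under CDK4/6i and 81.4% under both drugs. The median log2 fold change of the members was 0.41 under ATRA, 0.56 under CDK4/6i and 1.40 under both drugs, whereas over all tested genes it was -0.03, 0.02 and 0.02. SGSH, which had almost no counts without ATRA, enters these medians with a fitted value. With SGSH at the lower bound of its ratio they were 0.41 with ATRA and 1.40 with CDK4/6i+ATRA, and without SGSH the median with CDK4/6i was 0.59. Scaling by library size alone moved the median of all genes with CDK4/6i+ATRA to -0.25 and that of the members to 1.13, and then 31 members were higher and 10 lower (75.6% higher among those called, against 87.5%). The 3 comparisons share the non-treated libraries. The members were chosen with earlier results of these data known, so these shares carry no p-value.

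**Figure D2:**
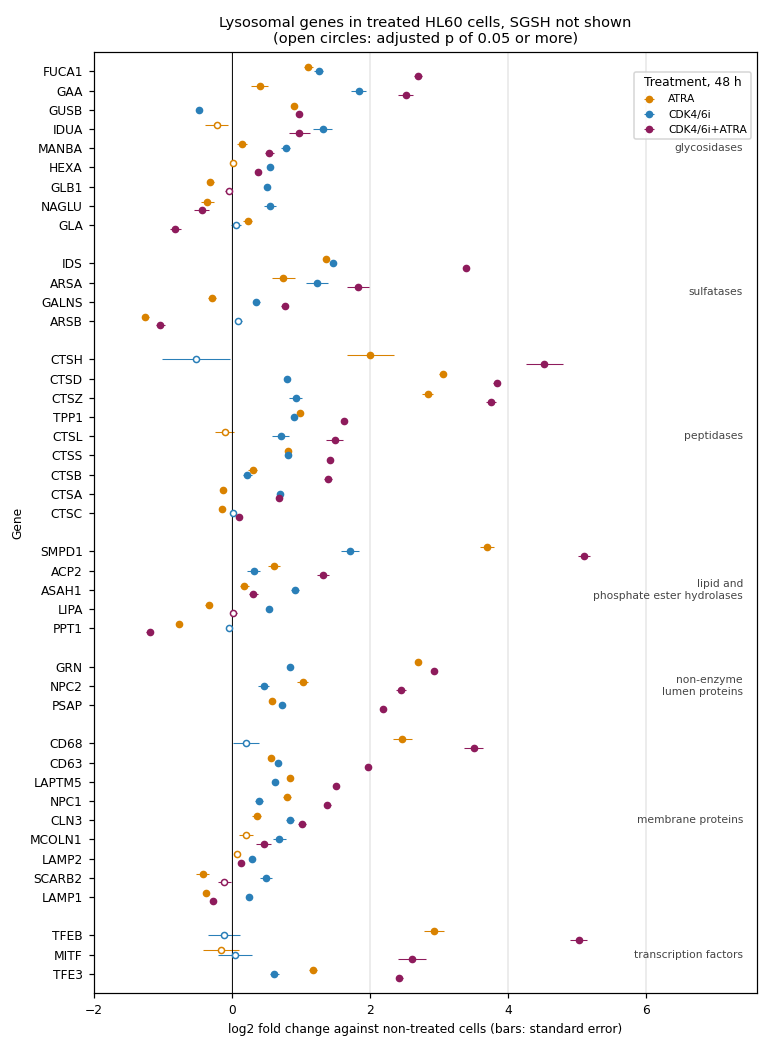
log2 fold change from non-treated cells (horizontal axis, bars: SE) of 42 lysosomal genes under ATRA, CDK4/6i and both, grouped by role. Filled circles passed an adjusted p of 0.05; SGSH is left out because it had 0 or 1 count per library in non-treated and CDK4/6i-treated cells, and with scaling by library size alone the CDK4/6i+ATRA values of CTSC, LAMP2 and LIPA fall below 0.

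The glycosidases, which remove sugars from glycans and glycolipids, were mixed with CDK4/6i+ATRA. Of 9 tested, 6 were higher and 2 lower, beside 41% and 40.7% of all tested genes, with a median log2 fold change of 0.55. By library size alone 6 were higher and 3 lower, with a median of 0.28. The largest rises were those of FUCA1, the α-fucosidase (2.7, SE 0.06, 17.9 to 116 CPM), and GAA, the α-glucosidase that degrades glycogen (2.52, SE 0.11, 5.98 to 34.3 CPM).
GLB1, the acid β-galactosidase behind the senescence stain, had 96.5, 90.9 and 92.3 CPM in the non-treated libraries, 72.6, 75.9 and 76.9 with ATRA, 135, 125 and 138 with CDK4/6i, and 93.9, 86.5 and 90.5 with CDK4/6i+ATRA. The CDK4/6i libraries lay above all others and the ATRA libraries below all others, while those with both drugs overlapped the non-treated ones. GLB1 rose 1.43-fold with CDK4/6i (log2 0.51, SE 0.04, adjusted p = 2.3e-14) and fell by 0.31 on the log2 scale with ATRA (SE 0.05, adjusted p = 7.52e-08, edgeR). With CDK4/6i+ATRA the change was -0.05 (SE 0.05, adjusted p = 0.38, edgeR), and GLB1 was called lower there with scaling by library size alone (-0.31) and without a filter (-0.15). GLB1 shares 240 exonic bases on the same strand with TMPPE, and their total counts were 1124 for TMPPE and 18691 for GLB1.
GLA, the α-galactosidase A, had 32.2, 35.1 and 32.5 CPM in non-treated cells, 38.0, 40.2 and 38.8 with ATRA, 33.9, 34.7 and 35.7 with CDK4/6i, and 16.5, 19.1 and 20.9 with CDK4/6i+ATRA. It was thus highest with ATRA alone and lowest with both drugs, without overlap in either case. Against non-treated cells GLA rose by 0.23 with ATRA (SE 0.07) and fell by 0.82 on the log2 scale with CDK4/6i+ATRA (SE 0.08).
NAGLU, the α-N-acetylglucosaminidase of heparan sulfate breakdown, had 13.3, 14.2 and 15.1 CPM in non-treated cells, 11.8, 10.7 and 10.9 with ATRA, 20.4, 19.8 and 22.2 with CDK4/6i, and 10.1, 10.4 and 11 with CDK4/6i+ATRA. All libraries with ATRA lay below all those without it, and the CDK4/6i libraries were the highest. NAGLU fell by 0.43 on the log2 scale with both drugs (SE 0.11, adjusted p = 0.000285, edgeR).
GUSB, the β-glucuronidase, ran opposite to GLB1. It rose with ATRA (0.91, SE 0.04, 82.0 to 154 CPM), fell with CDK4/6i (-0.47, SE 0.05, to 59.0 CPM) and rose with both (0.98, SE 0.04, to 162 CPM). GUSB has near-identical pseudogene copies, so its counts are uncertain. HEXA (0.38), MANBA (0.55) and IDUA (0.98) completed the rises with CDK4/6i+ATRA, and each had a larger value with CDK4/6i alone (0.56, 0.78 and 1.32). The 387 exonic bases that IDUA shares with SLC26A1 on the other strand make its counts uncertain.

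The sulfatases remove sulfate groups from glycosaminoglycans and sulfolipids. With CDK4/6i+ATRA 4 of 5 were higher and 1 lower, beside 41% and 40.7% of all tested genes. The median was 1.83, also with SGSH at its bound.
SGSH, the heparan N-sulfatase, had 0, 0 and 1 counts in non-treated cells, 19, 19 and 8 with ATRA, 0, 0 and 0 with CDK4/6i, and 91, 113 and 118 with CDK4/6i+ATRA. The normalized levels were 1.17, 1.11 and 0.441 CPM with ATRA and 8.33, 10.1 and 9.74 CPM with CDK4/6i+ATRA. SGSH was thus at the floor in both groups without ATRA, and the ATRA and CDK4/6i+ATRA libraries did not overlap. The ratio of its summed counts to the single count in non-treated cells was 45 with ATRA (95% interval 7.68 to 1815, exact binomial) and 473 with CDK4/6i+ATRA (84.4 to 18759), intervals that cover counting error only. Against CDK4/6i it was at least 165-fold higher with both drugs, taking 3 counts over the group as the floor. SGSH shares 1120 exonic bases with CARD14 on the other strand, which had 5 counts in all. It is also annotated on an alternate or patch contig, and whether reads of SGSH were lost for this reason was not tested.
IDS, the iduronate 2-sulfatase, had 54.8, 55.3 and 50.1 CPM in non-treated cells, 143, 138 and 130 with ATRA, 147, 148 and 146 with CDK4/6i, and 540, 567 and 565 with CDK4/6i+ATRA. With either drug alone all libraries lay between 130 and 148 CPM, and with both drugs they lay above all others (3.39, SE 0.04). IDS also has a near-identical pseudogene copy. ARSA, the arylsulfatase A that degrades sulfatide, was at 3.39 CPM in non-treated cells and rose in steps, by 0.74 under ATRA, 1.24 under CDK4/6i and 1.83 under both drugs.
ARSB, the arylsulfatase B of dermatan sulfate breakdown, had 67.2, 61.6 and 66.3 CPM in non-treated cells, 27.8, 26.9 and 27.4 with ATRA, 70.7, 67.4 and 70.1 with CDK4/6i, and 31.1, 32.4 and 31.9 with CDK4/6i+ATRA. All libraries with ATRA lay below all those without it. ARSB fell by 1.25 on the log2 scale with ATRA (SE 0.06, adjusted p = 5.25e-25) and by 1.03 with both drugs (SE 0.06, adjusted p = 2.69e-21, edgeR). GALNS, the galactosamine 6-sulfatase, fell with ATRA (-0.28, SE 0.06) and rose with both drugs (0.76, SE 0.05, 48.0 to 81.6 CPM).

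All 9 peptidases were called higher with CDK4/6i+ATRA, beside 41% of all tested genes, with a median of 1.49. However, CTSC (0.10, SE 0.04) lost its call without non-treated replicate 3 and without CDK4/6i+ATRA replicate 2 or 3. It turned lower with scaling by library size alone (-0.17) and, not called, without a filter (-0.010). CTSC encodes cathepsin C, which activates the serine proteases of myeloid granules, and CTSA, whose product protects β-galactosidase and sialidase, rose by 0.68 (SE 0.04).
CTSD had 312, 312 and 314 CPM in non-treated cells, 2623, 2525 and 2642 with ATRA, 563, 526 and 542 with CDK4/6i, and 4174, 4496 and 4704 with CDK4/6i+ATRA. The 4 groups were fully separate, and ATRA moved the gene far more than CDK4/6i did. CTSD rose 8.3-fold with ATRA (3.05, SE 0.05), 1.74-fold with CDK4/6i (0.80, SE 0.05) and 14.3-fold with both (3.83, SE 0.05), and was singled out here after its values were seen.
CTSH, the aminopeptidase cathepsin H, had 0.420, 0.752 and 0.394 CPM in non-treated cells, 2.09, 2.68 and 1.55 with ATRA, 0.622, 0.183 and 0.234 with CDK4/6i, and 11.4, 13.8 and 11 with CDK4/6i+ATRA. CTSH was scarce without ATRA, with 3 to 12 counts per library, and the libraries with both drugs exceeded all others. It rose 4.02-fold with ATRA (2.01, SE 0.34, adjusted p = 9.9e-07) and 23.0-fold with both drugs (4.53, SE 0.27, adjusted p = 6.67e-21, edgeR).
CTSZ, the carboxypeptidase cathepsin Z, behaved like CTSD, with mean levels of 8.64, 61.9, 16.5 and 117 CPM in the 4 groups in the same order (3.75 with both drugs, SE 0.08). The cysteine peptidases CTSB (1.40, SE 0.06), CTSL (1.49, SE 0.12) and CTSS (1.42, SE 0.04), and TPP1 (1.62, SE 0.04), a tripeptidyl peptidase, rose by similar amounts with both drugs. CTSL had no call with ATRA alone (-0.10, SE 0.13), whereas CTSS and TPP1 rose by 0.82 and 0.98 with ATRA and by 0.82 and 0.89 with CDK4/6i.

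Among the hydrolases of lipids and phosphate esters, 3 of 5 tested were higher and 1 was lower with CDK4/6i+ATRA, with a median of 0.31. Over all tested genes 41% were higher and 40.7% lower. By library size alone 2 of the 5 were higher and 2 lower, with a median of 0.047. SMPD1, the acid sphingomyelinase, had 3.12, 3.07 and 2.76 CPM in non-treated cells, 40.9, 35.7 and 39.4 with ATRA, 8.96, 10.7 and 9.82 with CDK4/6i, and 101, 102 and 104 with CDK4/6i+ATRA. No groups overlapped, and the order was non-treated, CDK4/6i, ATRA and both drugs. SMPD1 rose 13.0-fold with ATRA (3.70, SE 0.10), 3.28-fold with CDK4/6i (1.71, SE 0.13) and 34.3-fold with both (5.10, SE 0.09, adjusted p = 4.77e-43, edgeR).
ASAH1, the acid ceramidase that acts next after SMPD1, on ceramide, followed another pattern. It had 31.5, 35 and 32.1 CPM in non-treated cells, 36.4, 39.3 and 36.3 with ATRA, 65.0, 59.5 and 61.7 with CDK4/6i, and 40.0, 41.3 and 41.1 with CDK4/6i+ATRA. The CDK4/6i libraries were the highest, and those with both drugs lay between them and the ATRA libraries. ASAH1 rose by 0.92 with CDK4/6i (SE 0.06) and by 0.31 with both drugs (SE 0.07, and 0.05 without a call by library size alone), and its rise of 0.18 with ATRA lost its call without ATRA replicate 2.
PPT1, the palmitoyl thioesterase, had 227, 218 and 215 CPM in non-treated cells, 118, 133 and 137 with ATRA, 221, 201 and 217 with CDK4/6i, and 95, 97.1 and 97.0 with CDK4/6i+ATRA. The ATRA libraries lay below all those without ATRA, and those with both drugs were lower still. PPT1 fell by 0.76 with ATRA (SE 0.04) and by 1.19 with both drugs on the log2 scale (SE 0.05, adjusted p = 4.66e-28, edgeR), the latter being the largest fall of the 43 genes with both drugs against non-treated cells. It shares 1188 exonic bases on the other strand with CAP1, which had 85805 counts against 32330, and whether reads were counted by strand is not given in the sources used here. ACP2, a lysosomal acid phosphatase, rose with both drugs (1.33, SE 0.09). LIPA, the acid lipase that frees cholesterol from its esters, fell with ATRA (-0.33, SE 0.05), rose with CDK4/6i (0.54, SE 0.05) and had no call with both (0.02, SE 0.05; lower, -0.24, by library size alone).

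The 3 non-enzyme lumen proteins rose in each treated group, with a median of 2.45 with CDK4/6i+ATRA. PSAP, the precursor of the saposins that present glycolipids to hydrolases, had 530, 529 and 500 CPM in non-treated cells, 788, 759 and 780 with ATRA, 864, 857 and 871 with CDK4/6i, and 2441, 2386 and 2314 with CDK4/6i+ATRA. Each drug alone gave a rise of under 1 on the log2 scale (0.58, SE 0.04, and 0.73, SE 0.04), and both gave 2.20 (SE 0.04). GRN, progranulin, had 121, 113 and 118 CPM in non-treated cells, 754, 758 and 765 with ATRA, 210, 208 and 215 with CDK4/6i, and 847, 885 and 940 with CDK4/6i+ATRA. Most of its rise was present with ATRA alone (2.69, SE 0.04, and 2.92, SE 0.04, with both). NPC2, which hands cholesterol to NPC1, rose by 1.03 with ATRA (SE 0.08), 0.46 with CDK4/6i (SE 0.08) and 2.45 with both (SE 0.07).

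Of the 9 membrane proteins, 7 were higher and 1 lower with CDK4/6i+ATRA, with a median of 1.02 (5 and 3 by library size alone, median 0.75). Over all tested genes 41% were higher and 40.7% lower. LAMP1 and LAMP2, the heavily glycosylated proteins that line the membrane and serve as its usual markers, changed little. LAMP1 had 501, 498 and 485 CPM in non-treated cells, 377, 378 and 393 with ATRA, 609, 577 and 574 with CDK4/6i, and 399, 407 and 421 with CDK4/6i+ATRA. The 2 groups with ATRA lay below the non-treated libraries and the CDK4/6i group above them. LAMP1 fell by 0.37 with ATRA (SE 0.04, adjusted p = 2.84e-12) and by 0.27 with both drugs (SE 0.04, adjusted p = 9.43e-09), and rose by 0.25 with CDK4/6i (SE 0.04, adjusted p = 1.44e-07, edgeR).
LAMP2 had 253, 252 and 233 CPM in non-treated cells, 265, 259 and 253 with ATRA, 303, 296 and 303 with CDK4/6i, and 257, 271 and 279 with CDK4/6i+ATRA. Only the CDK4/6i libraries stood clear of the other 3 groups (0.29, SE 0.04, adjusted p = 6.59e-09, edgeR). The difference of 0.13 with both drugs (SE 0.04) lost its call without non-treated replicate 3 (0.08, adjusted p = 0.0717, edgeR) and turned lower with scaling by library size alone (-0.14).
MCOLN1, the calcium channel mucolipin 1, had 13.3, 13.3 and 12.8 CPM in non-treated cells, 16.5, 14.1 and 14.8 with ATRA, 21.6, 20.8 and 21.0 with CDK4/6i, and 22.2, 15.8 and 16.3 with CDK4/6i+ATRA. Replicate 1 of CDK4/6i+ATRA lay above the CDK4/6i group and the other 2 lay below it. MCOLN1 rose by 0.69 with CDK4/6i (SE 0.10) and by 0.46 with both drugs (SE 0.11), the latter being 0.29 without CDK4/6i+ATRA replicate 1 (adjusted p = 0.0136, edgeR) and 0.20 without a call by library size alone (adjusted p = 0.0987). With ATRA alone the difference was 0.21 (SE 0.10, adjusted p = 0.0696, edgeR), and it was called higher without ATRA replicate 2 (0.25), without CDK4/6i+ATRA replicate 1 (0.20) and with other scalings.
CD68, a mucin-like membrane protein used as a macrophage marker, had 2.82, 2.94 and 2.48 CPM in non-treated cells, 17.4, 14.4 and 13.9 with ATRA, 3.73, 2.81 and 2.86 with CDK4/6i, and 28.9, 29.6 and 34.7 with CDK4/6i+ATRA. It rose in the groups with ATRA (2.47, SE 0.14, and 3.50, SE 0.13) and had no call with CDK4/6i alone (0.20, SE 0.19). CD63, a tetraspanin of lysosomes and azurophil granules (1.97, SE 0.04), LAPTM5, a transmembrane protein of blood cells (1.51, SE 0.04), NPC1, the cholesterol exporter (1.39, SE 0.06), and CLN3, the protein altered in juvenile Batten disease (1.02, SE 0.06), rose with both drugs and also with each drug alone. NPC1 shares 396 exonic bases with RMC1 on the other strand. SCARB2, the receptor that carries glucocerebrosidase to lysosomes, fell with ATRA (-0.42, SE 0.09), rose with CDK4/6i (0.49, SE 0.09) and had no call with both (-0.11, SE 0.10).

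The 3 transcription factors were all higher with CDK4/6i+ATRA, and 2 of them had no call with CDK4/6i alone. TFEB had 1.98, 1.38 and 2.14 CPM in non-treated cells, 14.0, 13.8 and 14.5 with ATRA, 1.40, 2.32 and 1.46 with CDK4/6i, and 59.0, 65.0 and 56.6 with CDK4/6i+ATRA. It overlapped between the 2 groups without ATRA, and both groups with ATRA were separate from these and from each other. TFEB rose 7.61-fold with ATRA (2.93, SE 0.15, adjusted p = 2.79e-23) and 32.5-fold with both drugs (5.02, SE 0.12, adjusted p = 6.04e-37), and its value with CDK4/6i was -0.11 (SE 0.23, adjusted p = 0.703, edgeR).
TFE3 had 30.9, 30.6 and 36.5 CPM in non-treated cells, 74.2, 73.1 and 75.0 with ATRA, 51.1, 48.8 and 50.7 with CDK4/6i, and 186, 174 and 167 with CDK4/6i+ATRA. No groups overlapped, and TFE3 was the most abundant of the 3 factors per exon length in every group. It rose by 1.18 with ATRA (SE 0.06), 0.62 with CDK4/6i (SE 0.06) and 2.43 with both (SE 0.05).
MITF had 1.32, 2.76 and 1.74 CPM in non-treated cells, 1.79, 1.86 and 1.55 with ATRA, 1.87, 1.65 and 2.46 with CDK4/6i, and 13.2, 11.1 and 11.1 with CDK4/6i+ATRA. The first 3 groups overlapped and the libraries with both drugs were above all of them. MITF rose 6.1-fold with both drugs (2.61, SE 0.20, adjusted p = 8.4e-17, edgeR), and its values were -0.16 with ATRA (SE 0.26) and 0.04 with CDK4/6i (SE 0.25). These are levels of RNA, and the location of the factors in the cell was not measured in these libraries.

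**Figure D3:**
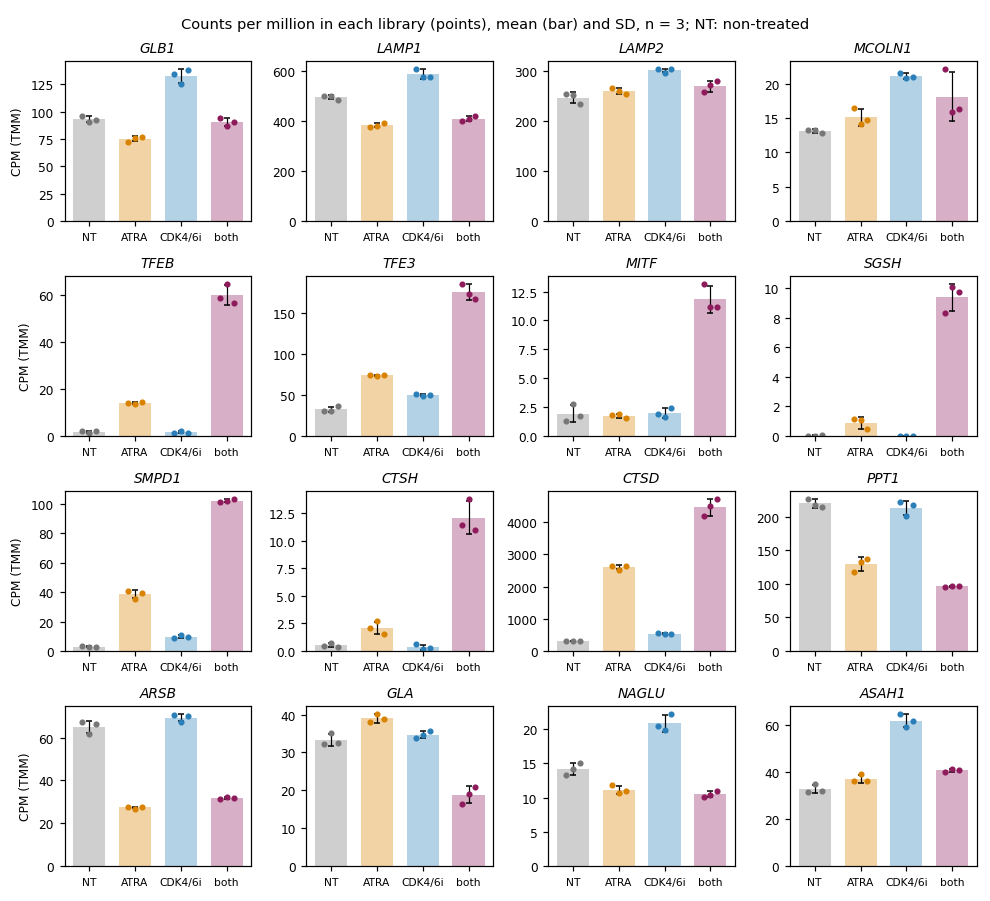
CPM (TMM) in each library (points), group mean (bar) and SD (n = 3) for 16 lysosomal genes in non-treated (NT), ATRA, CDK4/6i and CDK4/6i+ATRA (both) cells. GLB1, LAMP1, LAMP2 and ASAH1 are highest with CDK4/6i alone, TFEB, TFE3, MITF, SGSH, SMPD1, CTSH and CTSD are highest with both drugs, and PPT1 and ARSB are low in both groups with ATRA.

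The members moved in both directions when ATRA was added to CDK4/6i, and mostly upward when CDK4/6i was added to ATRA. Against CDK4/6i alone, CDK4/6i+ATRA had 27 of the 43 genes higher and 14 lower, against a background of 39.1% and 39.5%, with a median log2 difference of 0.73 (also with SGSH at its bound) against 0.00 over all genes. By library size alone 26 were higher and 16 lower, with a median of 0.45 for the members and -0.28 for all genes. Of 9 glycosidases 3 were higher and 6 lower. The genes lower than with CDK4/6i alone included GLB1 (-0.56, SE 0.05), NAGLU (-0.99, SE 0.10), GLA (-0.88, SE 0.08), ASAH1 (-0.61, SE 0.06), LIPA (-0.52, SE 0.05), LAMP1 (-0.52, SE 0.04) and SCARB2 (-0.60, SE 0.09), besides ARSB (-1.13, SE 0.06) and PPT1 (-1.15, SE 0.05). The value of MCOLN1 was -0.22 (SE 0.10) and lost its call without CDK4/6i replicate 1 (-0.20) and without CDK4/6i+ATRA replicate 2 (-0.15) or 3 (-0.16). CLN3 (0.18, SE 0.06) turned lower, -0.10 without a call, by library size alone. The largest differences upward were those of TFEB (5.13, SE 0.12), CTSH (5.04, SE 0.28, and 5.80 without CDK4/6i replicate 1), SMPD1 (3.39, SE 0.07), CD68 (3.30, SE 0.13) and CTSD (3.04, SE 0.05), besides SGSH.
Against ATRA alone, CDK4/6i+ATRA had 37 genes higher and 2 lower, GLA (-1.05, SE 0.08) and PPT1 (-0.42, SE 0.05), against a background of 36.9% and 32.8%, with a median of 0.71 (0.69 without SGSH) against 0.04 over all genes. This split depended on the scaling, since library size alone gave 27 higher and 8 lower, or 77.1% higher among those called against 94.9%, with a median of 0.40 for the members and -0.26 for all genes. The largest differences were those of SGSH (a ratio of 10.5, 95% interval 7.71 to 14.7), MITF (2.77, SE 0.20), CTSH (2.52, SE 0.21), GAA (2.11, SE 0.10), TFEB (2.10, SE 0.09) and IDS (2.02, SE 0.04). Of the called differences, those of 6 genes turned lower by library size alone, namely GLB1 (0.26 to -0.041), ARSB (0.22 to -0.091), CTSC (0.23 to -0.073), GRN (0.23 to -0.076), LAMP1 (0.10 to -0.21) and MCOLN1 (0.26 to -0.047). The call of LAMP1 was also lost without ATRA replicate 1 or 2 and without CDK4/6i+ATRA replicate 2 or 3, where it lay between 0.07 and 0.09. That of MCOLN1 was lost without ATRA replicate 2 or 3 (0.21 and 0.24) and without CDK4/6i+ATRA replicate 1 (0.09).

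The interaction asks whether the change with both drugs departs from the sum of the changes with each drug alone, on the log2 scale. It was positive in 17 of the 43 genes and negative in 14, against a background of 24.5% and 27%, with a median of 0.04 (0.02 without SGSH) against -0.02 over all genes. With scaling by library size alone, 13 were positive and 22 negative, so that 37.1% of those called were positive in place of 54.8%, and the median of all genes was -0.34. The 3 highest were CTSH (3.03, SE 0.55, adjusted p = 6.01e-06, and 3.80 without CDK4/6i replicate 1), MITF (2.72, SE 0.33, adjusted p = 8.25e-10) and TFEB (2.21, SE 0.25, adjusted p = 1.58e-10, edgeR). All 3 factors, TFE3 included (0.63, SE 0.08), were above additivity also by library size alone. Both saposin and cholesterol carrier genes of the lumen were positive too, PSAP at 0.88 (SE 0.06) and NPC2 at 0.96 (SE 0.11), whereas GRN was negative at -0.61 (SE 0.06). The 3 lowest were GLA (-1.11, SE 0.10, adjusted p = 3.63e-13), ASAH1 (-0.79, SE 0.09, adjusted p = 6.31e-11) and NAGLU (-0.63, SE 0.14, adjusted p = 0.000178, edgeR). In GLA neither drug alone lowered the gene and both together did. ASAH1 and NAGLU were higher with CDK4/6i than with both drugs. Of the membrane proteins 3 were positive, CD68 (0.83, SE 0.21), CD63 (0.73, SE 0.06) and NPC1 (0.19, SE 0.08, called in 6 of 18 alternatives and -0.13 by library size alone), and 3 were negative, LAMP1 (-0.15, SE 0.05, not called without CDK4/6i replicate 1), LAMP2 (-0.23, SE 0.05) and MCOLN1 (-0.43, SE 0.14). With scaling by library size alone, 2 of the membrane proteins were positive and 6 negative, and with the size factors of DESeq2 2 and 4. GLB1 was negative too (-0.25, SE 0.07). CTSD (-0.02, SE 0.06) and CTSZ (-0.01, SE 0.11), despite rises of 14.3-fold and 13.5-fold with both drugs, had no call, nor did SMPD1 (-0.31, SE 0.15, adjusted p = 0.0739, edgeR), which was called without ATRA replicate 2 or CDK4/6i replicate 1 (both -0.37). By library size alone all 3 were called negative, CTSD at -0.34, CTSZ at -0.33 and SMPD1 at -0.63.

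**Figure D4:**
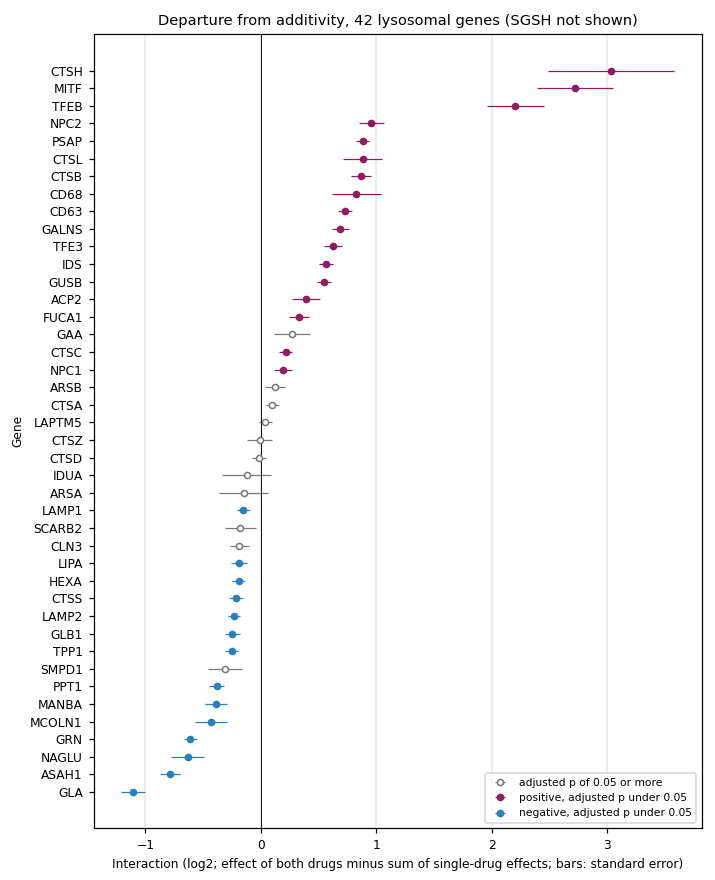
Interaction of ATRA and CDK4/6i (horizontal axis, log2, bars: SE) for 42 lysosomal genes, SGSH left out. CTSH, MITF and TFEB stand apart at 2.21 to 3.03 and GLA is the lowest at -1.11, while the positive values of NPC1, CTSC, CTSA, ARSB, LAPTM5 and GAA turn negative with scaling by library size alone.

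Levels between genes were compared per kilobase of exon length (RPKM, from CPM and the exons on primary chromosomes). LAPTM5 was the highest member in non-treated cells and with CDK4/6i (230 and 354 RPKM), followed by PSAP (188 and 313). With ATRA and with CDK4/6i+ATRA, CTSD was the highest (1264 and 2169 RPKM against 152 in non-treated cells), whose rank in non-treated cells was 4. GLB1 stood at rank 12 of 45 in non-treated cells (28.4 RPKM) and at rank 20 with both drugs (27.5 RPKM), since others rose past it. SMPD1 moved from rank 37 (1.21 RPKM) to rank 16 (41.4 RPKM) and TFEB from rank 40 (0.582 RPKM) to rank 24 (19.1 RPKM). MITF was at rank 41 both without drugs and with both drugs (0.309 and 1.88 RPKM).
The 6 genes with TCACGTGA in the promoter stretches printed above moved one way with CDK4/6i and both ways with ATRA. The tested members as a whole were also mostly higher with CDK4/6i (33 higher, 1 lower) and moved both ways with ATRA (27 and 10). With CDK4/6i all 6 were higher, beside 76.7% of the tested members and 28.3% of all tested genes, with GAA at 1.84, CLN3 at 0.84, CTSA at 0.71, MCOLN1 at 0.69, GALNS at 0.36 and LAMP1 at 0.25. With CDK4/6i+ATRA the values were 2.52, 1.02, 0.68, 0.46, 0.76 and -0.27 in the same order, beside 81.4% of the tested members and 41% of all tested genes called higher. With ATRA alone the values were 0.41, 0.36, -0.13, 0.21 (not called), -0.28 and -0.37. The calls of GAA and CTSA were lost without non-treated replicate 2 and without ATRA replicate 1, respectively. Of the tested members 62.8% were called higher with ATRA, beside 32.1% of all tested genes higher and 35.5% lower.
Annotation may limit the values of several genes. The count table lists 4379 genes with exons on alternate or patch contigs besides their primary chromosome, and 65.9% of these had no count in any library against 51% of the 54097 genes on primary chromosomes only. NEU1, GAA, SGSH, CTSB and TFE3 are among them, and the part of this in their counts was not tested.

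The machinery that acidifies lysosomes and delivers enzymes to them was read from lists of other genes. Of the 25 V-ATPase subunits, which pump protons into the lumen, 18 were tested, and with CDK4/6i+ATRA 15 were higher and 1 was lower than in non-treated cells, with a median of 0.80, beside 41% higher and 40.7% lower over all tested genes. ATP6V0A1 rose most (2.33, SE 0.05, 34.6 to 175 CPM) and ATP6V0A2, another isoform of the same subunit, fell by 0.44 on the log2 scale (SE 0.06, 56.0 to 41.2 CPM). The interaction was positive for 14 of the 18 and negative for 2, beside 24.5% and 27% over all tested genes, but for 4 and 4 by library size alone. In the mannose 6-phosphate route, which tags and sorts hydrolases, 9 of 13 tested genes were higher and 4 lower (median 0.33, and 6 and 4 with a median of 0.059 by library size alone), with IGF2R, the large sorting receptor, at 1.21 (SE 0.04) and CLN6, an endoplasmic reticulum protein of enzyme export, at -2.96 (SE 0.06, 151 to 19.2 CPM).
Other lysosomal enzymes had 15 of 29 tested genes higher and 9 lower (median 0.25, and 13 and 11 with -0.01 by library size alone), from HPSE, the heparanase, at 3.55 (SE 0.36, 0.294 to 3.56 CPM) to ARSK, a sulfatase, at -1.79 (SE 0.30). Other lysosomal membrane proteins had 13 of 27 higher and 5 lower (median 0.25, and 10 and 10 with -0.01 by library size alone), with the peptide transporters SLC15A3 at 3.46 (SE 0.24) and SLC15A4 at -1.18 (SE 0.09) at the ends. Lysosomal nutrient signalling genes had 12 of 21 higher and 6 lower (median 0.52, and 12 and 8 with 0.25 by library size alone), with RRAGA, a Rag GTPase, at 1.31 (SE 0.09) and MLST8, an mTOR partner, at -1.92 (SE 0.06). The share called higher in these 3 lists was thus nearer to the background of 41% than that of the 45 genes.
Of 10 azurophil granule proteins 6 were tested, since ELANE, PRTN3 and AZU1 were at 0 and DEFA4 had 27 counts in all. The source of these zeros was not tested. Of the 6, 3 were higher and 3 lower (median -1.37, and 2 and 4 by library size alone), beside 41% and 40.7% of all tested genes. MPO, myeloperoxidase, fell by 7.86 on the log2 scale (SE 0.08, 6511 to 27.9 CPM), while BPI, a bactericidal protein, rose by 2.39 (SE 0.05, 46.9 to 247 CPM). Of the cystatins, inhibitors of cysteine cathepsins, 3 were higher and 1 lower, with CSTB at 1.67 (SE 0.07) and CST7 at -3.00 (SE 0.05, 262 to 32.9 CPM). Among the 3 GLB1-like genes 1 was tested, and it was not called with both drugs.

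**Figure D5:**
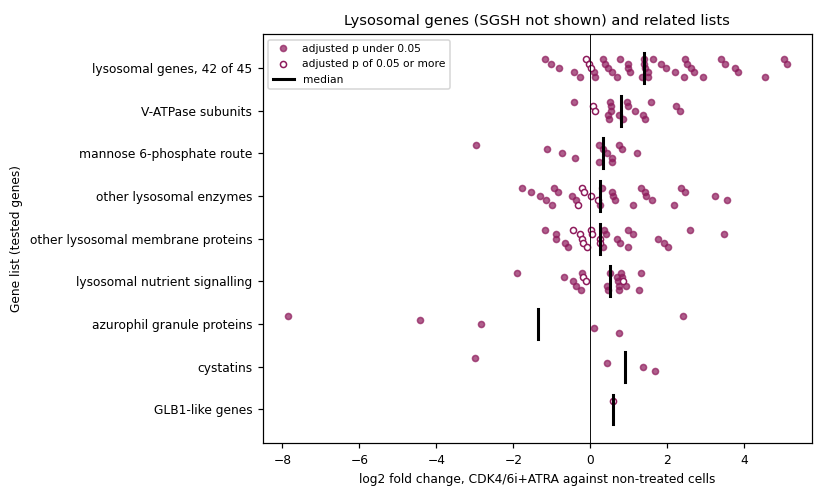
log2 fold change of CDK4/6i+ATRA against non-treated cells for the tested genes of each list (points; filled, adjusted p under 0.05) with the median (bar), for 42 lysosomal genes without SGSH and 8 related lists. V-ATPase subunits lie mostly above 0 (median 0.80), and the medians of the other lysosomal enzymes and membrane proteins (both 0.25) fall to -0.01 with scaling by library size alone.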

How the data were processed

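Per the deposited table, the authors' values are raw read counts per gene with exon coordinates, in the layout of featureCounts, for 12 RNA-Seq libraries made from total RNA with a directional kit. The submitters' processing notes name Trimmomatic 0.33, STAR 2.7.11a and hg38. The study's methods name RSEM for counting, and the strand setting of the counting is not given in the sources used here. Genes are RefSeq symbols, and no column of per-sample values was left unmatched (0).

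The 59251 genes were filtered with filterByExpr and normalized by TMM, and 13318 were tested in 1 edgeR 4.0.16 (R 4.3.3, limma 3.58.1) quasi-likelihood model of 4 groups with 8 residual degrees of freedom. P-values were adjusted by the Benjamini-Hochberg method over all tested genes, with a threshold of 0.05. The SE is the absolute log2 fold change divided by the square root of F. The script was tested on simulated data. Total counts were 15392648 to 16935515 in non-treated cells, 15238994 to 17010052 with ATRA, 15576806 to 18679544 with CDK4/6i and 12230923 to 14415276 with both. The P-values measure the spread between the libraries of 1 cell line. RPKM used exons on primary chromosomes. Ratios of SGSH counts have 95% exact binomial intervals scaled by effective library size.

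The members and lists were chosen with earlier results of these data known, as were the tests. Values in every library were set for GLB1, LAMP1, LAMP2, MCOLN1 and the 3 transcription factors, the 4 largest rises and falls with both drugs and the 3 highest and lowest interactions among called members. Those of IDS, CTSD, PSAP, GRN and CD68 were added after their values were seen. Of the related lists, the genes with the largest rise and fall were named.

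Alternatives were DESeq2 1.42.0, its size factors, library size alone, no filter, at least 10 counts in every library, a fit of only the groups compared, a replicate block and leaving out each library. Same-numbered libraries of different groups did not deviate together, since 0 of 18 pairs had a correlation over 0.1 (-0.11 to 0.07), so the numbers were not taken as pairs. Promoters were read from RefSeq windows and figures drawn with Python 3.11.15, pandas 2.3.3, numpy 2.4.6 and matplotlib 3.10.9.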

Additional observations from a re-analysis of the deposited data

Results flagged for a closer look

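These results stand here because the interaction term of edgeR passed an adjusted p of 0.05, so that the effect of ATRA differed between cells with and without CDK4/6i. Such a test calls 24.5% of all tested genes positive and 27% negative, and of the 43 members 17 were called positive and 14 negative. The positive interactions (log2) were those of CTSH (3.03), MITF (2.72), TFEB (2.21), NPC2 (0.96), PSAP (0.88), CTSL (0.88), CTSB (0.87), CD68 (0.83), CD63 (0.73), GALNS (0.69), TFE3 (0.63), IDS (0.56), GUSB (0.55), ACP2 (0.39), FUCA1 (0.33), CTSC (0.21) and NPC1 (0.19). Those of CTSC and NPC1 turned negative with scaling by library size alone. NPC1 also lost its call in 11 of 18 alternatives, ACP2 in 2 of 18, and FUCA1 and CTSC in 1 each.
The negative interactions were those of GLA (-1.11), ASAH1 (-0.79), NAGLU (-0.63), GRN (-0.61), MCOLN1 (-0.43), MANBA (-0.39), PPT1 (-0.38), TPP1 (-0.25), GLB1 (-0.25), LAMP2 (-0.23), CTSS (-0.21), HEXA (-0.19), LIPA (-0.19) and LAMP1 (-0.15). CTSH rests on 3 to 12 counts per library in cells without ATRA. LIPA lost its call in 4 of 18 alternatives and LAMP1 in 1, without CDK4/6i replicate 1. For none of these genes was a cause tested.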

How the results depend on the processing

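Of 4847 recomputed values of single members, 4688 kept their direction and call, 30 changed sign or came to 0 without a call in either setting, 70 kept the direction but lost the call, 39 gained a call and 20 reversed with a call in at least 1 setting. Scaling by library size alone gave 19 of the 20 reversals but 8 of the 70 lost calls, and the TMM factors of the CDK4/6i+ATRA libraries differ from the others. With library size alone, 10 members were lower than in non-treated cells under both drugs, 8 were lower than under ATRA and 22 had a negative interaction, and the summed levels were 4330 CPM (non-treated), 8633 CPM (ATRA), 6305 CPM (CDK4/6i) and 12160 CPM (both drugs). With both drugs against non-treated cells it reversed CTSC (-0.17), LIPA (-0.24) and LAMP2 (-0.14), and without a filter CTSC was -0.010. Against CDK4/6i it reversed CTSC (-0.20) and CLN3 (-0.10). Against ATRA it reversed GLB1 (-0.041), GUSB (-0.23), ARSB (-0.091), CTSC (-0.073), ASAH1 (-0.18), GRN (-0.076), LAMP1 (-0.21), LAMP2 (-0.25) and MCOLN1 (-0.047). In the interaction it reversed ARSB (-0.20), CTSA (-0.22), CTSC (-0.11), LAPTM5 (-0.28) and NPC1 (-0.13), and GAA, called in neither setting, went from 0.27 to -0.049. The setting shifts every gene of a comparison by a similar amount. Leaving out 1 library gave 33 to 35 members higher and always 5 lower with both drugs, 25 to 28 higher with ATRA and always 33 with CDK4/6i. The replicate block changed no call, with 35 higher and 5 lower and a median of 1.40 with both drugs. SGSH passed the interaction test only in DESeq2 (4.39). Counts were low for SGSH and CTSH without ATRA, and for NEU1 and ACP5 throughout, which limits the precision of their values.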
